A study of Arabidopsis thaliana with 3 samples.

Results

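Transcripts of 5 serine carboxypeptidase-like genes of Arabidopsis thaliana, scpl26, scpl28, scpl29, scpl36 and scpl46, were compared between leaves that overexpress the transcription factor WIN1 and control leaves. The genes were taken by name, as the probe sets that the array annotation pairs with these symbols, and they were 5 of 3602 genes paired with a probe set. They were read by 6 probe sets, since scpl26 had a pair of them, and each gene was followed probe set by probe set. The tested leaves came from 35S:WIN1 line 13 and 35S:WIN1 line 22, in which WIN1 is under the viral 35S promoter, active in most tissues and not only in the epidermis. The control leaves came from plants transformed with an empty binary vector, although the sample title calls them WT. Each of the 3 arrays held RNA of pooled leaves, from T2 progeny in the case of the lines, so there was 1 measurement per line and 1 for the control. The age of the plants is not given in the sources used here, and the level of WIN1 itself was not analysed here.

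Serine carboxypeptidases are secreted or vacuolar enzymes of the alpha/beta hydrolase fold that use a serine, aspartate and histidine triad to remove the last amino acid of a protein or peptide. In plants the family has grown large, and some members no longer cut peptides but move acyl groups from glucose esters. The best known of these acyltransferases, SNG1 and SNG2 (listed as SCPL19), make sinapate esters in leaves and seeds. Another member, BRS1, is known from overexpression that suppresses a weak brassinosteroid receptor mutant. WIN1, also called SHN1, is an AP2/ERF factor known for raising epidermal wax and for acting on cutin genes. No individual function is given here for scpl26, scpl28, scpl29, scpl36 or scpl46, which carry family names.

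Each array reported 8247 probe sets. A filter on dim probe sets left 5773 for testing, and the 6 serine carboxypeptidase-like ones all passed it. The median deposited intensity was 70.2 for the line 13 array, 35.2 for the line 22 array and 84.1 for the control array. Each array was therefore scaled to a common trimmed mean, and all intensities below are scaled unless called deposited. Log2 ratios are log2(scaled intensity + 18.6) of a line minus that of the control, so that ratios of dim probe sets come out too small. Over all kept probe sets the median log2 ratio was 0.01 in line 13 and -0.09 in line 22, and the SD of the ratios was 0.401 in line 13 and 0.936 in line 22. Of 10 leaf markers, all photosynthesis genes, 5 were matched, by 7 probe sets with intensities from 522.8 to 4468, and none of 10 markers of flower, seed or root was matched. Because whole leaves were pooled, fewer cells of a type and less RNA per cell cannot be told apart.

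None of the serine carboxypeptidase-like genes passed the test of WIN1 leaves against control leaves. In line 13 every probe set lay within 2-fold of the control on the log2 scale with its pseudocount. In line 22 a single probe set, 1 of the pair that reads scpl26, was over 2-fold above the control, and the other probe set of the same gene was not. Limma called 0 of the 6 at an adjusted p under 0.05, with 0.0346% of all kept probe sets called, and 0 of the 6 at an unadjusted p under 0.05, with 2.23% of all kept probe sets there. The rule of 2-fold the same way in both lines, which has no test, took 0 of the 6, against 1.42% of kept probe sets. In line 13 alone 0 of the 6 were 2-fold from the control, against 2.74%. In line 22 alone 1 of the 6 was, against 23.8% in either direction and 7.38% on the higher side. A count of 0 or 1 among 6 is near the background under each of these rules. All 6 had the same limma adjusted p of 0.9999. The only residual degree of freedom of the fit, 1, is the difference of the lines from each other, so the single control array has no spread of its own and is taken to be as variable as a line.

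**Figure D1:**
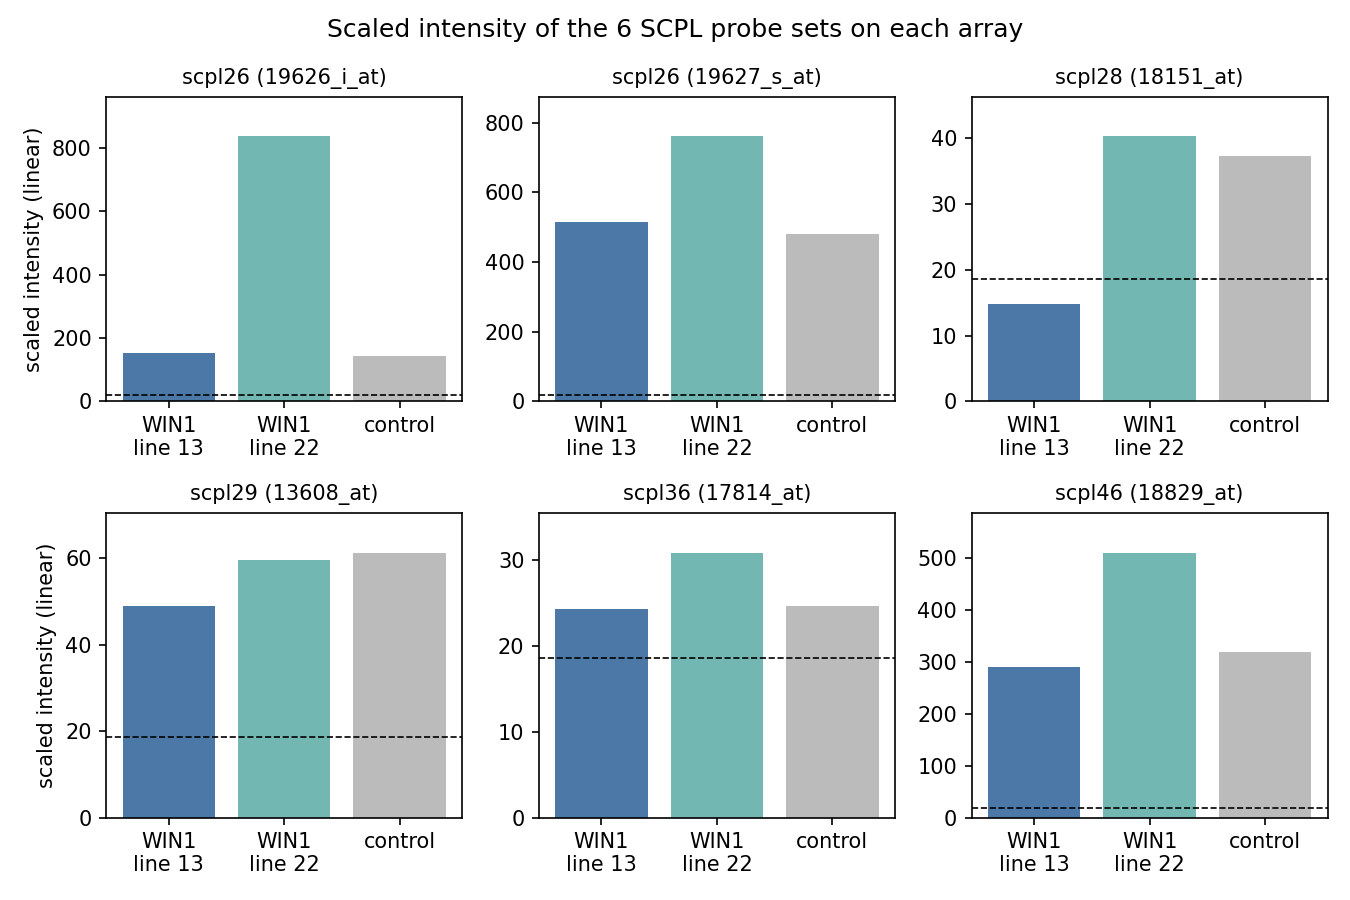
Scaled intensity (linear, arbitrary units) of each of the 6 probe sets on the arrays of WIN1 line 13, WIN1 line 22 and the control, 1 bar per array and no error bar because each had 1 array. The dashed line is the pseudocount of 18.6. Line 22 has the highest bar for 5 of the 6 probe sets, by far for 19626_i_at of scpl26, where it stands at 836.4 against 144.4 in the control.

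The gene scpl26 (AT2G35780) gave results that depended on which probe set was read. Probe set 19626_i_at read 152.6 on the line 13 array and 836.4 on the line 22 array, against 144.4 on the control array. Line 13 and the control were thus close to each other, and line 22 was far above both. Its log2 ratio to the control was 0.07 for line 13 and 2.39 for line 22, with a mean of 1.23 (limma SE 0.772, n = 2 lines; 95% interval -0.30 to 2.76; limma unadjusted p = 0.114). The mean rests on line 22, as the ratios of the single lines show. The ratio in line 22 stood at percentile 99.8 of all kept probe sets, and at percentile 59.6 in line 13.

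Probe set 19627_s_at of scpl26 read 514.9 on the line 13 array and 761.2 on the line 22 array, against 481 on the control array. The order of the arrays was the same, line 22 above line 13 above the control, but the differences were small. Its log2 ratio was 0.09 for line 13 and 0.64 for line 22, a mean of 0.37 (limma SE 0.731, n = 2 lines; 95% interval -1.08 to 1.82; limma unadjusted p = 0.615). On this probe set the mean ratio turned to -0.19 on the deposited values without scaling.

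A ratio of the probe sets within an array needs no scaling between arrays, and it put line 22 apart as well. The deposited intensity of 19626_i_at divided by that of 19627_s_at was 0.296 for line 13 and 1.099 for line 22, against 0.300 for the control. Line 13 and the control therefore agreed closely in how the probe sets stood to each other, and line 22 did not. With a pseudocount, the gap between the log2 ratios of the pair was 0.02 in line 13 and 1.75 in line 22. The gap in line 22 lay between 1.54 and 1.87 under each scaling and pseudocount tried.

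Gaps of this size were common in line 22. Among 108 genes with several kept probe sets, the median gap was 0.186 in line 13 and 1.23 in line 22. In line 22 a gap at least as large as that of scpl26 was found in 34 of the 108 genes, scpl26 included, up to 4.79. In line 13 the gap was at least as large as that of scpl26 in 100 of the 108. In the array's naming, the ending _i_at marks probe sets with fewer probes than the design called for and _s_at marks probes shared by several transcripts. Of the 120 kept probe sets that end in _i_at, 37.5% were 2-fold from the control in line 22, with a median log2 ratio of 0.41, whereas the share was 23.3% for _s_at (1075 probe sets, median 0.01) and 23.5% for plain _at (4323 probe sets, median -0.13). Probe sets that end in _r_at went the same way as _i_at, with 33.3% of 48 at 2-fold and a median of 0.70. Of 24 genes with a kept _i_at probe set among several, 5 had a gap in line 22 at least as large as that of scpl26. The median gap of these 24 in line 22 was 0.663, under the 1.23 of all 108 genes. The part that the probe set type plays in the value of 19626_i_at was not tested.

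**Figure D2:**
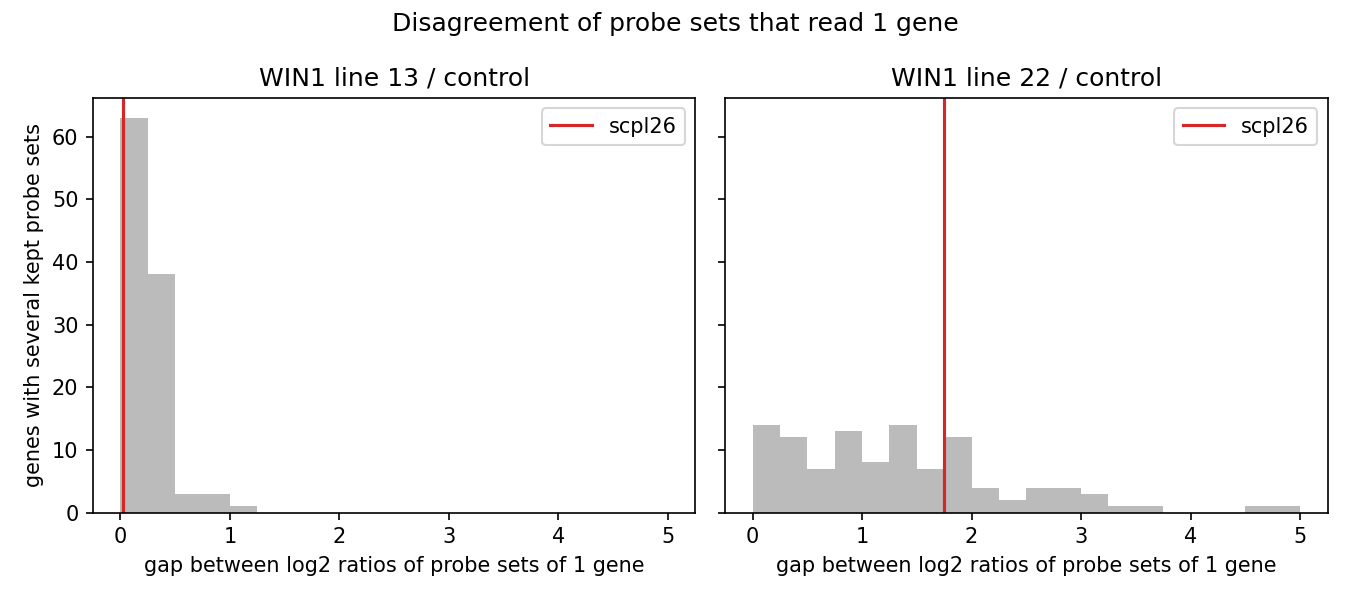
Histograms of the gap between the highest and the lowest log2 ratio to the control among the probe sets of 1 gene, for 108 genes with several kept probe sets, in WIN1 line 13 (left) and WIN1 line 22 (right). The vertical line marks scpl26, at 0.02 in line 13 and 1.75 in line 22, where the gaps of all genes spread up to 4.79.

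The gene scpl28 (AT2G35770), the neighbour of scpl26 in the order of protein-coding genes of RefSeq assembly TAIR10.1, was read by the dim probe set 18151_at. The line 13 array gave an intensity of 14.8 and the line 22 array 40.3, against 37.3 on the control array. Line 13 was the low array, under the pseudocount, and line 22 and the control were close to each other. The log2 ratio was -0.74 in line 13 and 0.07 in line 22, a mean of -0.33 (limma SE 0.656, n = 2 lines; 95% interval -1.64 to 0.97; limma unadjusted p = 0.613). The ratio in line 13 was the lowest of the 6 and stood at percentile 2.70 of kept probe sets, or 5.55 within its own brightness decile. A dim value makes it depend on the pseudocount, and in line 13 it was -1.13, past 2-fold, with a pseudocount at the 5th percentile and -0.39 with one at the 40th. Neither probe set of the adjacent scpl26 was low in line 13.

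The gene scpl46 (AT2G33530), read by 18829_at, was among the bright members. Line 13 leaves gave 290.9 and line 22 leaves 511.5, against 318.7 for control leaves. Line 22 was the high array, and line 13 lay a little under the control. The log2 ratio was -0.12 in line 13 and 0.65 in line 22, a mean of 0.26 (limma SE 0.739, n = 2 lines; 95% interval -1.21 to 1.73; limma unadjusted p = 0.722). The direction of this mean changed with the scaling, to -0.28 on the deposited values. In line 22 the ratio of scpl46 was close to the 0.64 of scpl26 on 19627_s_at.

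The genes scpl29 (AT4G30810) and scpl36 (AT3G52000) had the smallest mean log2 ratios of the lines in size, although in a single line other members came closer to the control. For scpl29, probe set 13608_at gave 48.9 for line 13 and 59.6 for line 22, against 61.4 for the control. Both lines lay under the control, line 22 by very little. The log2 ratio was -0.24 in line 13 and -0.03 in line 22, a mean of -0.14 (limma SE 0.713, n = 2 lines; 95% interval -1.56 to 1.28; limma unadjusted p = 0.846), and the mean turned to 0.0077 when medians were made equal and to 0.019 under quantile normalization. For scpl36, probe set 17814_at gave 24.3 for line 13 and 30.8 for line 22, against 24.7 for the control. Line 13 and the control were nearly equal, and all its values were not far above the pseudocount. The log2 ratio was -0.01 in line 13 and 0.19 in line 22, a mean of 0.09 (limma SE 0.643, n = 2 lines; 95% interval -1.19 to 1.37; limma unadjusted p = 0.889), and it turned to -0.26 on the deposited values.

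The limma 95% interval of the mean log2 ratio was wide for each of the 6 probe sets. All 6 intervals include 0 and reach past 1 or past -1 on the log2 scale, so a 2-fold difference in mean was not excluded for any of them. Line 13 and line 22 had 1 array each, and their order has no spread to be set against.

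**Figure D3:**
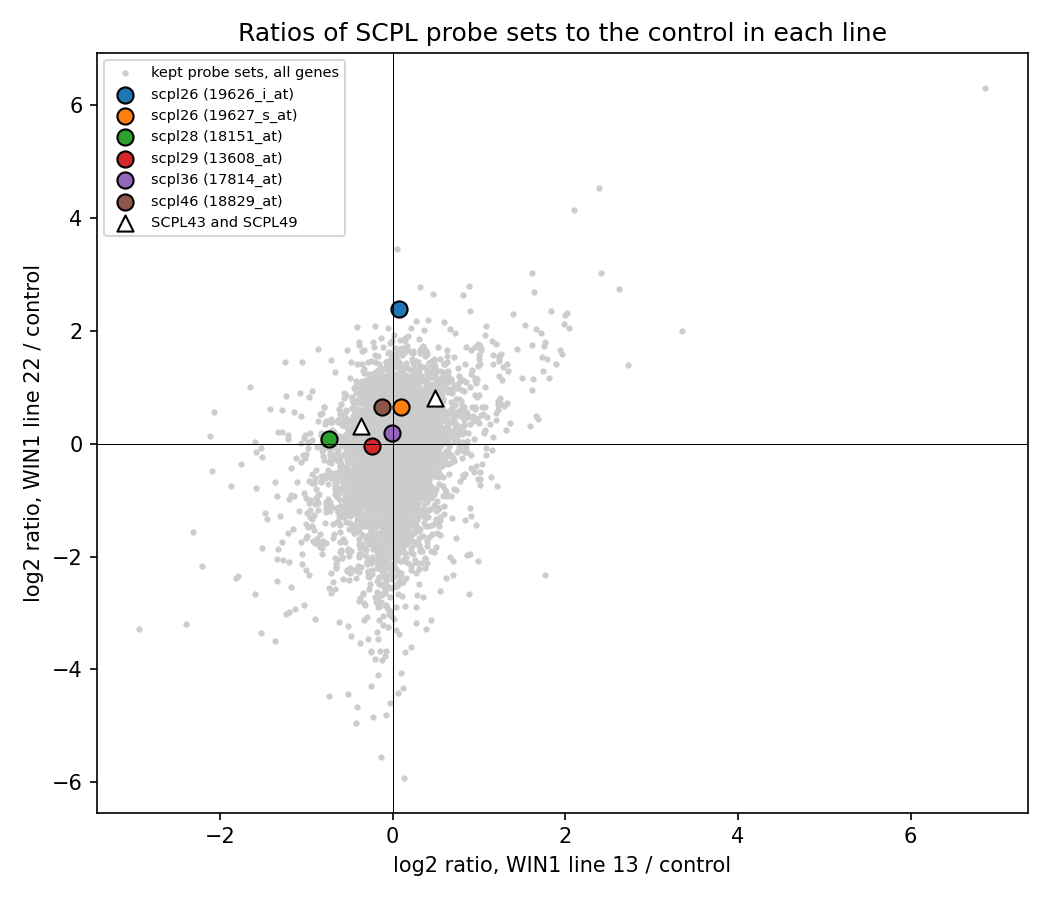
Log2 ratio to the control in WIN1 line 13 (horizontal) and in WIN1 line 22 (vertical) for 5773 kept probe sets (grey), the 6 probe sets of scpl26, scpl28, scpl29, scpl36 and scpl46 (coloured circles) and the kept probe sets of SCPL43 and SCPL49 (open triangles). Of the 6, 19626_i_at of scpl26 lies farthest from the origin, at 0.07 in line 13 and 2.39 in line 22.

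After scaling, all 6 probe sets were higher in line 22 than in line 13, whereas 43.4% of all kept probe sets were. The same order was found for both kept probe sets of the other family members and for all 7 leaf marker probe sets, so it was not particular to the 6, and without scaling it held for 4 of them. The dim relative scpl30, left out by the filter, had the other order, at 22.8 in line 13 and 7.7, under the pseudocount, in line 22. For the 6, the log2 difference of line 13 minus line 22 ran from -2.32 for 19626_i_at of scpl26 to -0.21 for scpl36. By size, 1 of the 6 was at least 2-fold higher in line 22 than in line 13, against 6.6% of kept probe sets (21.9% in either direction). The pair of probe sets of scpl26 shares a gene, so the 6 are not independent. The median log2 ratio over all 6 was -0.07 in line 13 and 0.42 in line 22, beside 0.01 in line 13 and -0.09 in line 22 over all kept probe sets.

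The direction in line 22 depended on the scaling of the arrays. After scaling, 2 of the 6 were above the control in line 13, against 50.9% of all kept probe sets, and 5 of the 6 in line 22, against 45.7%. On the deposited values 0 of the 6 were above the control in line 13, against 19.6% of kept probe sets, and 1 of the 6 in line 22, against 13.9%. The control was then the highest of the arrays for 5 of the 6 and for 71.9% of kept probe sets. Leaving out the scaling moved the median log2 ratio of all kept probe sets to -0.27 in line 13 and -0.78 in line 22, and the median of the 6 was then -0.32 in line 13 and -0.23 in line 22. Of the 6, 4 were higher in line 22 than in line 13 on the deposited values, against 23.7% of kept probe sets. Quantile normalization put all 6 above the control in line 22, against 53.0% of kept probe sets, whose median log2 ratio was 0.06 there. Common-median scaling also put all 6 above the control in line 22, against 61.4% of kept probe sets, whose median was 0.26. With that scaling 3 of the 6 were at least 2-fold above the control in line 22, against 17.4% of kept probe sets, since 19627_s_at of scpl26 reached 1.05 and scpl46 reached 1.06.

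**Figure D4:**
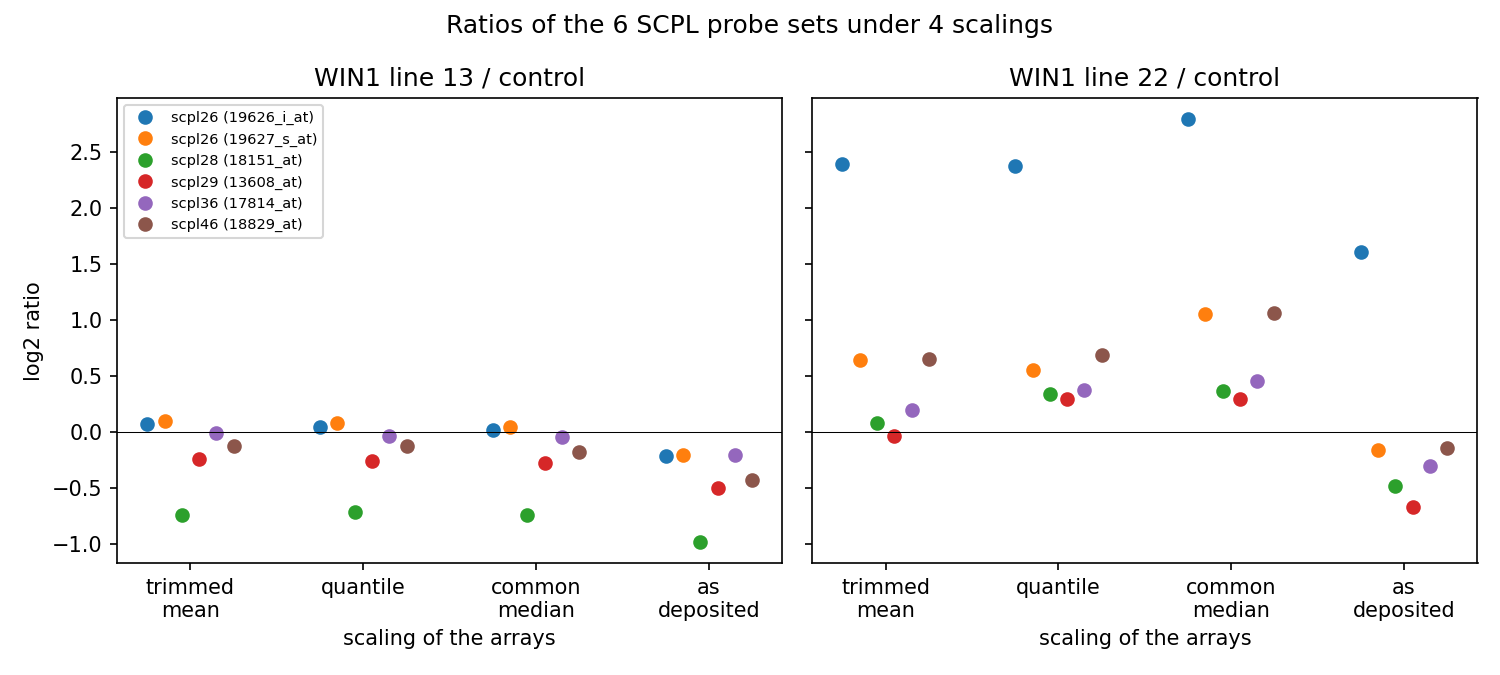
Log2 ratio to the control of the 6 probe sets in WIN1 line 13 (left) and WIN1 line 22 (right) under 4 ways of scaling the arrays, 1 point per probe set, offset sideways for legibility. In line 22 the probe set 19626_i_at of scpl26 stays above 0 under all 4, from 1.61 as deposited to 2.79 with common-median scaling, while the other 5 lie below 0 as deposited.

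Ratios in line 22 also moved with brightness, so each was set against the kept probe sets of its own brightness decile, an alternative chosen after seeing the data. In line 22 all 6 lay above the median of their decile, by 2.58 for 19626_i_at and 0.58 for 19627_s_at of scpl26, 0.72 for scpl46, 0.24 for scpl36, 0.22 for scpl29 and 0.20 for scpl28. Apart from 19626_i_at, at percentile 99.7 of its decile, they stood between percentiles 61.5 and 80.1, well inside the spread. In line 13 the same difference was above 0 for both probe sets of scpl26 (0.08 and 0.10) and below 0 for the rest, down to -0.77 for scpl28. The median log2 ratio of the 7 leaf marker probe sets was -0.02 for line 13 and 0.74 for line 22. In line 22 that was near the ratios of scpl46 and of 19627_s_at of scpl26, and under that of 19626_i_at. The leaf markers were bright and were not set against probe sets of their own brightness decile. Their part in these ratios was not tested.

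Most of the rest of the family had no paired probe set, and most of the other paired genes were too dim to be measured. The RefSeq table lists 51 family genes, of which 15 were paired with a probe set here, the 5 described above and 10 others. Of the 10 probe sets of the others, 2 were kept, and 7 were under the pseudocount on all 3 arrays. SCPL49 (AT3G10410), which RefSeq also lists as carboxypeptidase Y, gave 174.6 for line 13 and 292.4 for line 22, against 230.3 for the control. It was low in line 13 and high in line 22, with log2 ratios of -0.37 and 0.32. SCPL43 (AT2G12480) gave 33.3 for line 13 and 45.8 for line 22, against 18.3 for the control, and log2 ratios of 0.49 and 0.80. Both lines were above the control for SCPL43, whose control value lay under the pseudocount, and neither gene passed the limma test (limma adjusted p = 0.9999 each, 0 of 2 at an unadjusted p under 0.05).

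The dim relatives included genes that lie next to scpl36. In gene order scpl36 is followed by scpl37 and then scpl39. The intensity of scpl37 was -1.9 for line 13 and -2.0 for line 22, against 15.5 for the control. That of scpl39 was -9.0 for line 13 and -17.8 for line 22, against 0.83 for the control. Both lines lay below 0 for these genes, so no level above background was measured there, and no fold is given. The pair scpl22 and scpl23, also adjacent, had values at or under 0.42 on every array, and scpl31, SCPL32, scpl38 and scpl30 had 22.8 or less. The median log2 ratio over all 10 was 0 in both lines, which the values set to 0 below background fix.

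The genes that connect this family to its known biochemistry mostly had no probe set paired with them in the annotation used here. Of 18 genes of sinapate ester and phenylpropanoid synthesis, the pathway that supplies the acyltransferase members, 1 was matched. UGT84A1, a glucosyltransferase that makes hydroxycinnamate glucose esters, was dim, with -10.3 for line 13 and 15.4 for line 22, against -4.2 for the control. Of 13 brassinosteroid genes, 1 was matched and kept. BRL1, a brassinosteroid receptor, gave 23.8 for line 13 and 39.9 for line 22, against 16.0 for the control, with log2 ratios of 0.29 and 0.76 that depend on the pseudocount, since the control value lay under it. Of 11 other peptidase genes found by name, 2 were matched. SBT3.12, a subtilase, gave 39.4 for line 13 and 15.2 for line 22, against 70.8 for the control, with log2 ratios of -0.62 and -1.40, the second from a line 22 value under the pseudocount. CP1, a cysteine proteinase, was below 0 on every array. UGT84A1 and CP1 were left out of the test by the filter. Only BRL1 and SBT3.12 were tested, and neither passed limma at an adjusted p under 0.05. That threshold was passed by 0.0346% of all kept probe sets, so this says little about the pathways.

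The gene nearest to each probe set over the 3 arrays was found by Euclidean distance of log2 intensity among kept probe sets paired with 1 gene. That distance takes in the level as well as the ratios, so it does not show how common a pattern of ratios was. For scpl46 the nearest was AT5G65360, listed as a histone, at a distance of 0.092, its own log2 ratios being -0.01 for line 13 and 0.66 for line 22. For 19627_s_at of scpl26 it was AT2G40510 at 0.053, for scpl36 AT3G54930 at 0.066, for scpl29 AT1G03440 at 0.124 and for scpl28 PUB19, a U-box ubiquitin ligase, at 0.160. For 19626_i_at of scpl26 the nearest, AT4G36980, was much farther away, at 0.854, its own log2 ratios being 0.26 for line 13 and 1.46 for line 22. The other 5 thus had close counterparts among 2601 to 2602 candidates and 19626_i_at did not. With 3 arrays such a distance says little beyond the levels on the single arrays. For 19626_i_at these include the high line 22 value already given, 836.4 against 524.6 for AT4G36980.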

How the data were processed

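RNA of pooled leaves was hybridised to 3 Affymetrix Arabidopsis genome arrays, per the labels. The deposited values are linear intensities, 1 per probe set, and between 13.6% and 16.0% of an array's values were at or below 0. The software that summarised the probes is not given in the sources used here. Multiplying line 13 by 0.981, line 22 by 1.40 and the control by 0.788 gave every array the same mean of 176.6 after a trim of 2% at each end. Negative values became 0, and log2 was taken after adding 18.6, the 20th percentile of positive scaled values, as a pseudocount. Probe sets above the 30th percentile of mean log2 intensity were kept.

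The contrast of WIN1 with control was fitted with limma 3.58.1 in R 4.3.3 (lmFit, eBayes with trend, two-sided) on the 5773 kept probe sets, and p-values were adjusted over all of them by the Benjamini-Hochberg method. The prior held a median of 85.3 degrees of freedom against 1 residual, so p-values rest mostly on the spread pooled over probe sets, and the number of arrays limits the precision. The procedure was tested on simulated data.

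Probe sets were named from GEO's platform annotation, with symbols replaced by those of a RefSeq table (assembly TAIR10.1) that has the same gene ID. A single gene was given for 3794 of 8247 probe sets, several genes for 70 and none for 4383. The named genes were every probe set of the 5 genes, every other measured family gene, every measured member of the sinapate and brassinosteroid lists, up to 4 other peptidases and the nearest gene to each probe set. Members and lists were chosen with earlier results of these data known. Alternatives for the scaling, pseudocount, filter, fold threshold and eBayes settings were tried, and each line was left out in turn.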

Additional observations from a re-analysis of the deposited data

How the results depend on the processing

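No paired analysis was possible because the control is a single array. With 1 line left out, limma has no residual degrees of freedom, and the ratio of the other line is a value with no test. Limma called 0 of the 6 probe sets at an adjusted p under 0.05, and 0 at an unadjusted p under 0.05, under every scaling, pseudocount, floor, filter and eBayes setting run (lowest adjusted p 0.964 to 1). Among all tested probe sets the adjusted threshold was passed by 0 under quantile normalization, with the floor and without a filter. The highest count was 4, with the pseudocount at the 40th percentile. A count of 0 among the 6 is thus near the background and says little about these genes. The unadjusted share over all kept probe sets, 2.23%, is given for the main settings only. The filter at the 50th percentile kept 3 of the 6. The count that was 2-fold the same way in both lines was 0 under every alternative, also at 1.5-fold, and 0 to 1 with a single line. Without scaling the mean log2 ratio turned to -0.19 for scpl26 on 19627_s_at, -0.26 for scpl36 and -0.28 for scpl46, and the median of the 6 in line 22 to -0.23. The mean for scpl29 turned to 0.0077 when medians were made equal and to 0.019 under quantile normalization. Leaving out the scaling lowered all ratios by construction, and other causes were not tested. With single lines the ratio ranged from -0.74 to 0.075 for scpl28, from -0.013 to 0.19 for scpl36, from -0.12 to 0.65 for scpl46 and from 0.07 to 2.39 for 19626_i_at of scpl26. That probe set had a positive mean under every alternative. Intensities near the pseudocount limit scpl28 and scpl36, and the lone control limits all ratios.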
